A study of Mus musculus with 3 samples.

Results

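The aminoacyl-tRNA synthetase genes were followed here in activated mouse CD4+ T cells of 3 genotypes. Members were taken by gene symbol: letters followed by ars, ars1 or ars2, together with Farsa, Farsb and the fused enzyme gene Eprs. This gave 37 genes of the 20886 that could be named on the array, 20 for the cytosolic enzymes and 17 for the mitochondrial ones. Of these, 36 had at least 1 probe well above background on at least 1 array and were measured. The exception was Nars2, the mitochondrial asparagine enzyme, whose probe did not clear the background threshold on any of the arrays.

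The cells were CD4+ T cells from female C57BL/6 mice of 8 weeks, stimulated for 2 days. The 3 groups were wild type, Dll1-/- and Rbpj-/-, with 1 one-colour array each. Dll1 encodes Delta-like 1, a Notch ligand, and Rbpj encodes the DNA-binding protein through which Notch signals reach their target genes. By its title, the series addresses how Delta-like 1 passes survival signals in these cells. The stimulus, the cells in which each gene was deleted, and the number of animals behind each RNA were not given in the sources used here. With 1 array per genotype no difference has a replicate check, so no test was made, and a difference between arrays cannot be told apart from a difference between cell preparations.

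Aminoacyl-tRNA synthetases join each amino acid to its tRNAs, which is the step that sets the genetic code. Most amino acids have a cytosolic enzyme and a separate nuclear-encoded mitochondrial enzyme, while Gars and Kars each serve both compartments. Several cytosolic enzymes sit together in a multisynthetase complex held by the scaffold proteins Aimp1, Aimp2 and Eef1e1. Many cytosolic synthetase genes are known targets of ATF4, the transcription factor of the amino acid response, and T cells raise synthetase expression as they grow and divide after activation.

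The array held 55678 non-control probes, of which 46.6% were well above background on the wild-type array, 50.1% on the Dll1-/- array and 47.3% on the Rbpj-/- array. No spot was saturated, and the 3 arrays lay on 1 slide. All 8 CD4 T cell markers were well above background on each array. Relative to wild type, Cd4 differed by -0.04 (log2) on the Dll1-/- array and 0.38 on the Rbpj-/- array, and Cd3e by 0.04 and -0.07. Rbpj itself differed by -0.50 on the Rbpj-/- array and by 0.28 on the Dll1-/- array, the mean over 2 probes. Where those probes lie relative to the deleted part was not given. Dll1 could not check its label, since its probe stayed at background on all 3 arrays.

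A level below is the log2 processed signal minus the 75th percentile of its array, so 0 is the signal of the 75th percentile probe. Levels were compared between arrays and never between genes. The spot error printed after a difference is the scanner software's own error of both spots, which does not cover differences between cell preparations. It was nearly the same for most genes of 1 probe, with a median of 0.20 over the cytosolic genes. Counts beyond it therefore act much like a fixed cutoff. For genes of 2 probes it is smaller by averaging and leaves out any disagreement between the probes. A difference of at least 1.5-fold is called apart.

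The Rbpj-/- array had the lowest level of the 3 for 19 of the 20 cytosolic synthetases and for 10 of the 16 measured mitochondrial ones. Wild type was the highest array for 12 cytosolic and 10 mitochondrial genes. The shares of all genes that were lowest or highest on an array were not counted, so these counts have no background. Against wild type, 31 of 36 synthetases were lower on the Rbpj-/- array, where 60.2% of all genes tested were lower. The median difference was -0.25 for the synthetases and -0.07 for all genes. Only 2 synthetases, Wars and Rars, lay 1.5-fold or more below wild type and 0 lay that far above it, where the shares over all genes were 6.91% and 4.86%. The shift was thus small for each gene and lay in the number of genes below wild type.

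On the Dll1-/- array 24 of 36 synthetases were lower than wild type, against 55.6% of all genes, and the median was -0.06 against -0.03 for all genes. There were 0 synthetases at least 1.5-fold lower, against 2.25% of all genes, and 1 at least 1.5-fold higher, Yars, against 1.96%. Between the knockouts, 29 of 36 were lower on the Rbpj-/- array than on the Dll1-/- array, where the share over all genes was 55.1%. There 3 synthetases, Rars, Yars and Wars, were at least 1.5-fold lower and 0 higher, against 6.35% and 5.25% of all genes. The 3 comparisons share arrays, so a high or low value on one array enters 2 of them.

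**Figure D1:**
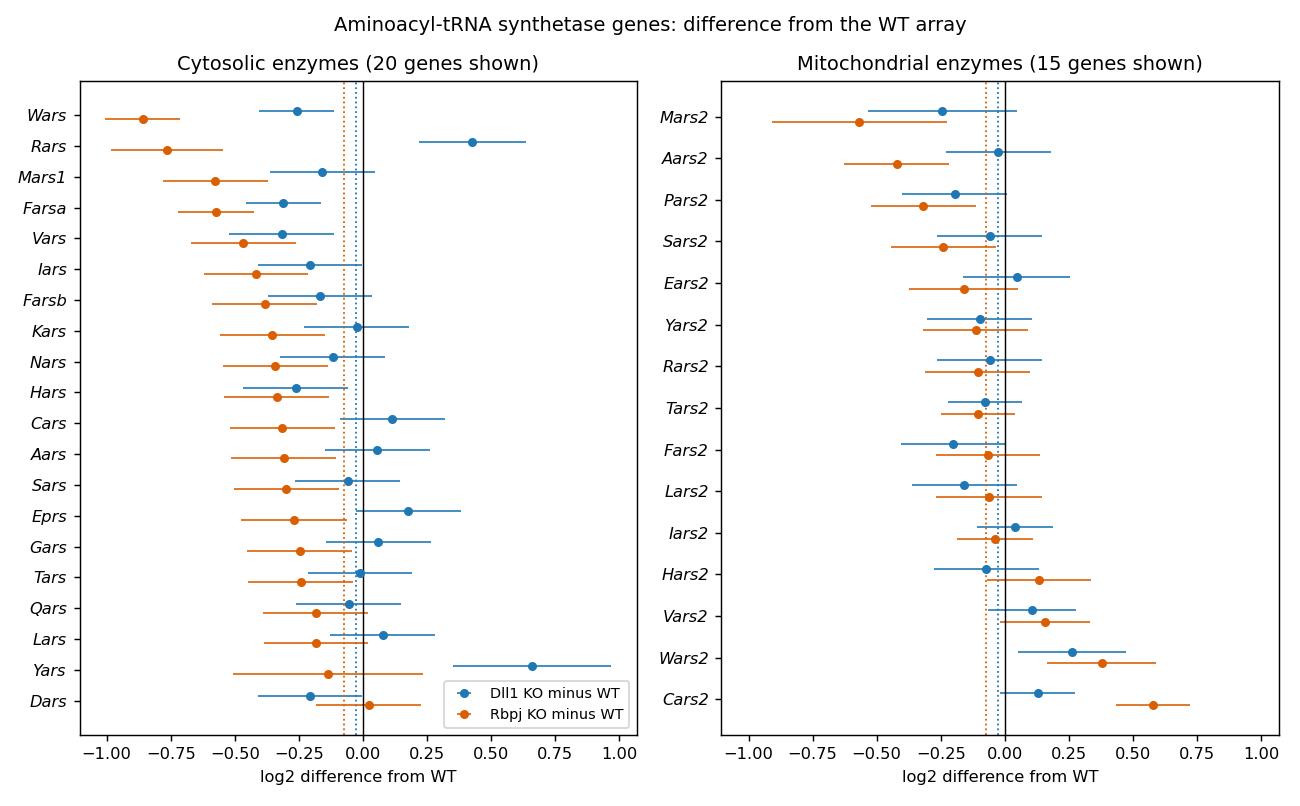
Log2 difference from wild type for the 20 cytosolic and 15 of the 16 measured mitochondrial synthetases on the Dll1-/- and Rbpj-/- arrays, in separate panels; points are single-array differences, bars the spot error, and dotted lines the medians over all genes. In the cytosolic panel 19 of 20 Rbpj-/- points lie below 0, from -0.86 for Wars to 0.02 for Dars, while the mitochondrial points spread from -0.57 to 0.58.

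The 20 cytosolic enzymes had a median of -0.33 on the Rbpj-/- array relative to wild type. Dars, the aspartate enzyme, was the exception at 0.02. The difference exceeded its own spot error downward in 16 of the 20, where 32.2% of all genes and 36.1% of those with a mean level above 0 did so, and upward in 0, against 18.6% of all genes. It exceeded 2 spot errors downward in 6 of the 20, against 13.8% of all genes and 14.3% of those with a level above 0. Genes of high signal ran lower on this array as a whole: of the genes with a mean level above 0, as 18 of the 20 cytosolic synthetases had, 67.3% were lower. On the Dll1-/- array 13 of 20 were below wild type with a median of -0.06, and the share among genes with a level above 0 was 59%. Between the knockouts 19 of 20 were lower on the Rbpj-/- array, with a median of -0.26, against 61.5% of the genes with a level above 0.

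Other processing left the cytosolic count near its place but changed its size. With normexp background correction and quantile normalization, 19 of 20 were still below wild type on the Rbpj-/- array, and the median was -0.18. Of all genes 47.7% were below there under normexp, with a median of 0.01, and 50.3% in Dll1-/-. Between the knockouts 45.6% of all genes were then lower in Rbpj-/-. Scaling to the median probe or to the spike-in spots moved the median of all genes to -0.24 and -0.66, and all 20 genes were then below wild type. Both are constants per array, so they shift every gene alike and leave the cytosolic median at -0.25 relative to all genes by construction. Under normexp, which is not a constant shift, it was -0.19 relative to all genes. By part of the array surface, 11 of 11 genes with probes in rows 1 to 192 were below wild type, with a median of -0.34. In rows 193 to 384 8 of 9 were, with a median of -0.30, against 60.6% of all genes there. This divides the same genes on the same arrays and is not a second measurement.

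The 8 enzymes of the multisynthetase complex are Dars, Eprs, Iars, Kars, Lars, Mars1, Qars and Rars. On the Rbpj-/- array 7 of them were below wild type, where 60.2% of all genes were, with a median of -0.31, or -0.15 under normexp. Rars, the arginine enzyme, stood at a level of -0.09 in wild type, 0.34 in Dll1-/- and -0.85 in Rbpj-/-. It was the highest on the Dll1-/- array and the lowest on the Rbpj-/- array. The difference was 0.43 ± 0.21 (spot error) for Dll1-/- and -0.76 ± 0.22 for Rbpj-/- against wild type, the latter a 1.70-fold lower signal. Between the knockouts it was -1.19 ± 0.22, or 2.28-fold, the widest gap of any synthetase. Rars has 1 probe, and normexp narrowed these differences to 0.30, -0.47 and -0.77.

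Mars1, which charges both initiator and elongator methionine tRNA, had levels of 2.02, 1.86 and 1.44 in wild type, Dll1-/- and Rbpj-/-. Its signal was lowest in Rbpj-/-, by -0.58 ± 0.20 relative to wild type, or 1.49-fold. Eprs, which charges both glutamate and proline tRNAs, stood at 1.33, 1.51 and 1.07, so that Dll1-/- was the highest array and Rbpj-/- the lowest. Against wild type it differed by 0.18 ± 0.20 in Dll1-/-, within the spot error, and by -0.27 ± 0.21 in Rbpj-/-, or -0.13 under normexp. The other complex members differed from wild type in Rbpj-/- by -0.42 for Iars, -0.35 for Kars, -0.18 for Lars and -0.18 for Qars. In Dll1-/- 5 of the 8 complex enzymes were below wild type, against 55.6% of all genes, and the median was -0.04.

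The scaffold genes were also lower in Rbpj-/-. Aimp2 differed by -0.40 and Aimp1 by -0.32 from wild type, and Eef1e1 by -0.21. All 3 were below wild type in Rbpj-/-, where 60.2% of all genes were, with a median of -0.32, which normexp brought to -0.10. In Dll1-/- all 3 were below as well, where 55.6% of all genes were, but by no more than 0.09, with Eef1e1 at -0.09.

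Among the cytosolic enzymes outside the complex, Wars was the furthest from wild type. Wars charges tryptophan tRNA and is known as an interferon-inducible gene. Its level was 3.65 in wild type, 3.39 in Dll1-/- and 2.79 in Rbpj-/-. The Rbpj-/- array was thus the lowest, by -0.86 ± 0.15 relative to wild type, a 1.81-fold lower signal, and by -0.60 ± 0.15 relative to Dll1-/-. Dll1-/- lay between them, at -0.26 ± 0.15 from wild type, or -0.15 under normexp. The 2 probes of Wars agreed in the Rbpj-/- comparison, at -0.90 and -0.82. Under normexp the difference from wild type was -0.63, over 1.5-fold, while the difference between the knockouts was -0.48 and no longer 1.5-fold.

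Farsa, the alpha subunit of the cytosolic phenylalanine enzyme, had levels of 2.21, 1.89 and 1.63 in wild type, Dll1-/- and Rbpj-/-. The Rbpj-/- difference of -0.57 ± 0.15 was the mean of 2 probes that gave -0.88 and -0.27, so its size depends on the probe, and it was -0.35 under normexp. The brighter probe gave the smaller difference. Farsb, which encodes the beta subunit, differed by -0.38. Vars, the valine enzyme, stood at 1.55, 1.23 and 1.08, and Hars, the histidine enzyme, at 1.49, 1.23 and 1.15. Both were highest in wild type, and both knockouts lay below it: Vars by -0.32 ± 0.20 and -0.47 ± 0.20, Hars by -0.26 and -0.34.

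Yars, the tyrosine enzyme, was highest in Dll1-/-. Its level was -2.41 in wild type, -1.75 in Dll1-/- and -2.55 in Rbpj-/-. Dll1-/- lay 0.66 ± 0.31 above wild type, or 1.58-fold, while wild type and Rbpj-/- differed by less than the spot error, at -0.14 ± 0.37. The single Yars probe is dim, and the Dll1-/- difference was 0.17 under normexp and 0.50 with spike-in scaling, so the 1.5-fold call depended on the processing. Between the knockouts Yars differed by -0.80 ± 0.32, and by -0.38 under normexp.

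**Figure D2:**
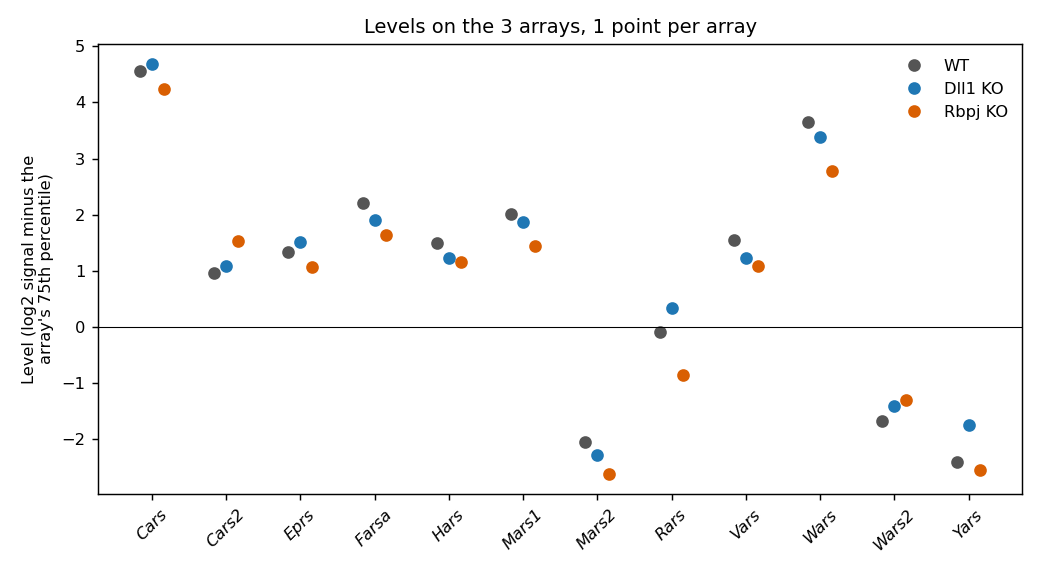
Level on each array (log2 processed signal minus the 75th percentile of its array) for the 12 synthetases with the widest differences, 1 point per array and gene. Points are to be compared within a gene only; Rars and Yars are highest on the Dll1-/- array, Wars steps down from wild type (3.65) to Rbpj-/- (2.79), and Cars2 is highest on the Rbpj-/- array (1.53).

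Of the cytosolic genes, 12 form a list of known ATF4 targets: Aars, Cars, Eprs, Gars, Iars, Lars, Mars1, Nars, Sars, Tars, Wars and Yars. All 12 were below wild type on the Rbpj-/- array, with a median of -0.30, and all 12 were below Dll1-/-, with a median of -0.34. Of all genes 60.2% and 55.1% were, and of those with a level above 0 67.3% and 61.5%. Under normexp all 12 were below in both comparisons, against 47.7% and 45.6% of all genes, with medians of -0.15 and -0.20. In Dll1-/- the list was divided, with 6 above and 6 below wild type and a median of 0.02, where 55.6% of all genes were below. The 8 remaining cytosolic enzymes gave 7 below wild type in Rbpj-/-, with a median of -0.37, and 7 below in Dll1-/-, with a median of -0.19. Both lists were thus below wild type in Rbpj-/-; no test of a difference between them was made. Cars, the cysteine enzyme, had levels of 4.56, 4.68 and 4.25: Rbpj-/- was the lowest, by -0.31 ± 0.20, or -0.13 under normexp, and Dll1-/- was within the spot error at 0.11 ± 0.20.

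RefSeq promoter windows, from 250 bases before to 50 after the start on GRCm38.p6, were held for 27 of the 37 members. The C/EBP-ATF response element, searched as TGATGNAA on both strands, was in 5 of the 27 (Aars, Gars, Iars, Tars and Yars), or 18.5%, and in 4.51% of all 27025 genes with a window. ATF4 is known to bind such composite elements as a dimer with C/EBP proteins. The windows below run from 120 bases before to 20 after the start, 5′ to 3′ on the strand of the gene, and are shown because they hold the element in the genes of the ATF4 list; capitals mark it. The Aars window lies at chr8:111033722-111033861 (plus strand), Gars at chr6:55037881-55038020 (plus), Iars at chr13:49682010-49682149 (plus), Tars at chr15:11399639-11399778 (minus) and Yars at chr4:129189783-129189922 (plus).
Aars: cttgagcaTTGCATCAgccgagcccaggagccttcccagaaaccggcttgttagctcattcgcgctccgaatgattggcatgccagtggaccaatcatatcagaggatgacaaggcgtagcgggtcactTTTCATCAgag
Gars: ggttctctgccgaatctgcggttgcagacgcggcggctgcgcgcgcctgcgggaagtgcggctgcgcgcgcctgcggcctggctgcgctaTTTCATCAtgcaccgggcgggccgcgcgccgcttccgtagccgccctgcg
Iars: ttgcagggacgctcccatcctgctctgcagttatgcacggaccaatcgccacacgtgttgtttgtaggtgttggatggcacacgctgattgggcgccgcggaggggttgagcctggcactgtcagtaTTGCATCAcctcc
Tars: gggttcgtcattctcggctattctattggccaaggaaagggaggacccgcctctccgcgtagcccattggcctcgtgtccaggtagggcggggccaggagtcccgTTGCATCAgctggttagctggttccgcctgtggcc
Yars: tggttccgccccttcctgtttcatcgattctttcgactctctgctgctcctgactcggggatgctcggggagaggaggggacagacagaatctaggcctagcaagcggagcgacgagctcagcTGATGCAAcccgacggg
Aars has 2 copies, starting 112 bases before and 9 after the start, while Gars has 1 at 30 bases before, Tars 1 at 15 before, Iars 1 at 7 after and Yars 1 at 3 after. All 5 genes were below wild type on the Rbpj-/- array, at -0.31 for Aars, -0.25 for Gars, -0.42 for Iars, -0.24 for Tars and -0.14 ± 0.37 for Yars. So were 19 of the 20 cytosolic genes and 60.2% of all genes tested. Eprs, Mars1 and Sars of the ATF4 list, with windows that lack the element, differed by -0.27, -0.58 and -0.30. A part of the element in the differences was not tested. The E-box CACGTG, the letters that MYC and related factors bind, was in Aars, Ears2, Farsb, Iars and Tars, 5 of 27 or 18.5% against 8.09% of all genes. The letters GTGGGAA, which Rbpj binds, were in 0 of 27 against 7.24% of all genes. The interferon-stimulated response element (ISRE) was in 1 of the 27 (Qars), against 3.99%, and the gamma-activated site TTCNNNGAA in 3 (Aars, Kars and Nars2), against 9.55%. Letters absent from these windows say nothing of the factor, and no window was held for Wars.

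The mitochondrial synthetases were near the median of all genes. On the Rbpj-/- array 12 of 16 were below wild type, where 60.2% of all genes were, with a median of -0.09. Under normexp 8 of 16 were below, against 47.7% of all genes, with a median of 0.01. Without normexp the difference exceeded the spot error downward in 4 and upward in 2 of the 16, against 32.2% and 18.6% of all genes. In Dll1-/- 11 of 16 were below wild type, against 55.6% of all genes, with a median of -0.06. There the difference exceeded the spot error downward in 0 and upward in 1, against 18.3% and 14.2% of all genes. Between the knockouts 10 of 16 were lower in Rbpj-/-, against 55.1% of all genes, with a median of -0.02.

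Cars2, the mitochondrial cysteine enzyme, was the synthetase furthest above wild type in Rbpj-/-. Its level was 0.95 in wild type, 1.08 in Dll1-/- and 1.53 in Rbpj-/-, so Rbpj-/- was the highest array, by 0.58 ± 0.15 or 1.49-fold. Its 2 probes gave 0.20 and 0.96 for that difference. Wars2, the mitochondrial tryptophan enzyme, was also highest in Rbpj-/-, with levels of -1.68, -1.42 and -1.30 and a difference of 0.38 ± 0.21 from wild type. There 1 probe gave -0.03 and the other 0.78, and normexp brought the difference to 0.03, so its direction rested on the dimmer probe.

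In the opposite direction, Mars2, the mitochondrial methionine enzyme, had levels of -2.05, -2.30 and -2.62 in wild type, Dll1-/- and Rbpj-/-. Rbpj-/- was the lowest array, by -0.57 ± 0.34, and normexp brought this to -0.16. Aars2, the alanine enzyme, differed by -0.42, Pars2, the proline enzyme, by -0.32 and Sars2, the serine enzyme, by -0.24. Hars2 and Vars2, for histidine and valine, lay above wild type at 0.13 and 0.16.

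The cytosolic and the mitochondrial enzyme of the same amino acid were compared for 12 amino acids. In Rbpj-/- against wild type the cytosolic difference was the more negative for 11 of these 12, with a median gap of -0.26. The exception among them was alanine, with a gap of 0.11. The widest gap was for tryptophan at -1.24, followed by cysteine at -0.89, arginine at -0.66 and valine at -0.63. The 2 widest involve Wars2 and Cars2, whose probes gave -0.03 and 0.78, and 0.20 and 0.96. For methionine the pair lay side by side, at -0.58 and -0.57. The gaps for tyrosine (-0.02), serine (-0.06), leucine (-0.12) and threonine (-0.14) were also smaller than the spot error of either gene, as was that for alanine. In Dll1-/- the cytosolic difference was the more negative for 6 of 12, and between the knockouts for 11 of 12, with a median of -0.24.

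**Figure D3:**
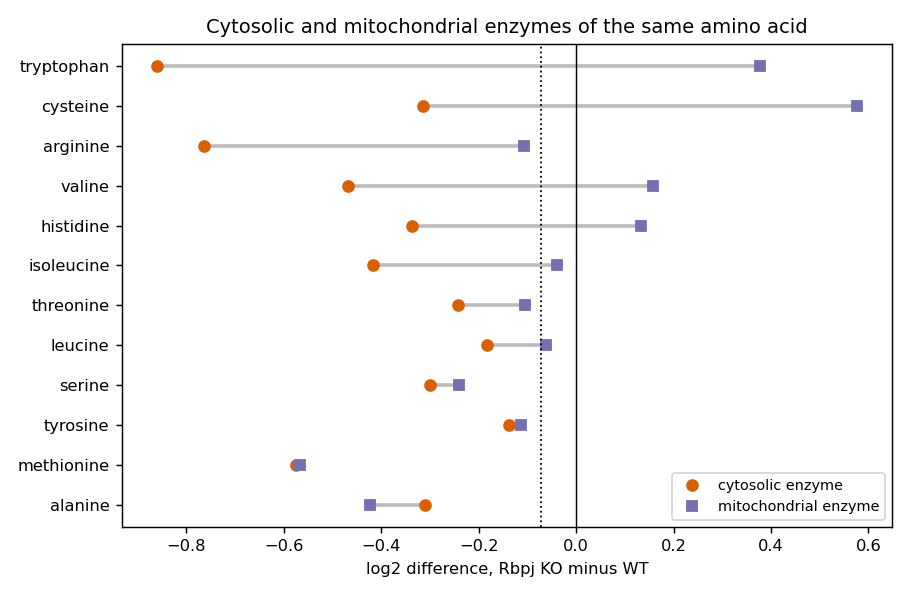
Log2 difference of Rbpj-/- from wild type for the cytosolic and the mitochondrial synthetase of the same amino acid, 12 amino acids; the dotted line is the median over all genes. The cytosolic point is the lower of the pair for 11 of the 12, with the widest gap at tryptophan (-1.24). Gaps at methionine, tyrosine, serine, leucine and threonine, and at alanine the other way, are smaller than the spot error of either gene.

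By structural class, the shift in Rbpj-/- was in both. Class I synthetases carry a Rossmann-fold catalytic core and class II an antiparallel beta-sheet core, and Eprs has a domain of each. In Rbpj-/- 16 of 19 class I genes and 16 of 18 class II genes were below wild type, against 60.2% of all genes. The medians were -0.18 and -0.28. Under normexp 14 of each were below, against 47.7% of all genes, with medians of -0.08 and -0.13. In Dll1-/- 9 of 19 class I genes and 15 of 18 class II genes were below, against 55.6% of all genes. The medians were 0.04 and -0.07. Normexp gave 10 of 19 and 11 of 18 in Dll1-/-, with medians of -0.04 and -0.03, so that ordering of the classes was not kept.

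Other genes of tRNA charging were measured beside the synthetases. In the mitochondrial charging partners all 6 were below wild type in Rbpj-/-, with a median of -0.24, where 60.2% of all genes were below. Of them 1 was apart, Gatc at -0.90, where 6.91% of all genes were at least 1.5-fold lower. Gatc encodes a subunit of the amidotransferase that makes glutaminyl-tRNA in mitochondria. Under normexp 5 of 6 were below wild type, with a median of -0.12 and 0 apart, and Gatc is dim, with a wild-type level of -2.49. Tufm and Tsfm, the mitochondrial elongation factors, differed by -0.39 and -0.22. In the list of tRNA export and elongation all 5 were below wild type, with a median of -0.22 that normexp brought to -0.07, led by the elongation factor subunit Eef1g at -0.42. Xpot, which carries tRNAs out of the nucleus, was above wild type in Dll1-/- at 0.25 and differed by -0.39 between the knockouts. Of 5 synthetase-like and editing factors 4 were below wild type in Rbpj-/-, or 3 under normexp, with Tarsl2 at -0.43 and Aarsd1, an editor of mischarged alanine tRNA, at -0.35.

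The wider amino acid response was measured in 25 of 30 listed genes for Rbpj-/- against wild type. Of these 19 were below, against 60.2% of all genes, with a median of -0.36. There 3 were at least 1.5-fold lower, where 6.91% of all genes were: Cebpb at -0.87, the transaminase Gpt2 at -0.84 and Ddit3, which encodes CHOP, at -0.68. Gpt2 is dim, with levels of -1.62, -2.28 and -2.46 in wild type, Dll1-/- and Rbpj-/-. Atf4 itself differed by -0.24, and Asns, the asparagine synthetase, ran the other way at 0.37. Under normexp 15 of 25 were below, against 47.7% of all genes, with a median of -0.09 against 0.01, and 1 was 1.5-fold lower. In Dll1-/- 12 of 26 were below, against 55.6% of all genes, with a median of 0.03. Gpt2 was the gene apart, at -0.66, where 2.25% of all genes were at least 1.5-fold lower. That call was lost under normexp, where 0 were apart. Between the knockouts 21 of 25 were lower in Rbpj-/-, against 55.1% of all genes, and 4 were at least 1.5-fold lower, against 6.35%. These were the amino acid carriers Slc1a4 (-0.96) and Slc7a1 (-0.62), Chac1 (-0.64, with a dim Dll1-/- level of -1.61) and the proline enzyme Aldh18a1 (-0.61). Under normexp 20 of 25 were lower there, against 45.6% of all genes, and 1 was 1.5-fold lower.

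Interferon-stimulated genes were listed because Wars is among the genes that interferon induces. In Rbpj-/- 18 of 19 were below wild type, where 60.2% of all genes were, with a median of -0.82. At least 1.5-fold lower were 14, against 6.91% of all genes, led by Ifit3 at -1.71, Ifit1 at -1.58, Irf7 at -1.51 and Ifi44 at -1.32. Under normexp the median was -0.51, against 0.01 for all genes. There 9 were at least 1.5-fold lower, and the share over all genes was not counted. In Dll1-/- 18 of 19 were below wild type, against 55.6% of all genes, with a median of -0.19. There 0 were at least 1.5-fold lower or higher, against 2.25% and 1.96% of all genes. Tap1 and Irf7 were the lowest, at -0.56 and -0.55. The part of this in the Wars difference was not tested.

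**Figure D4:**
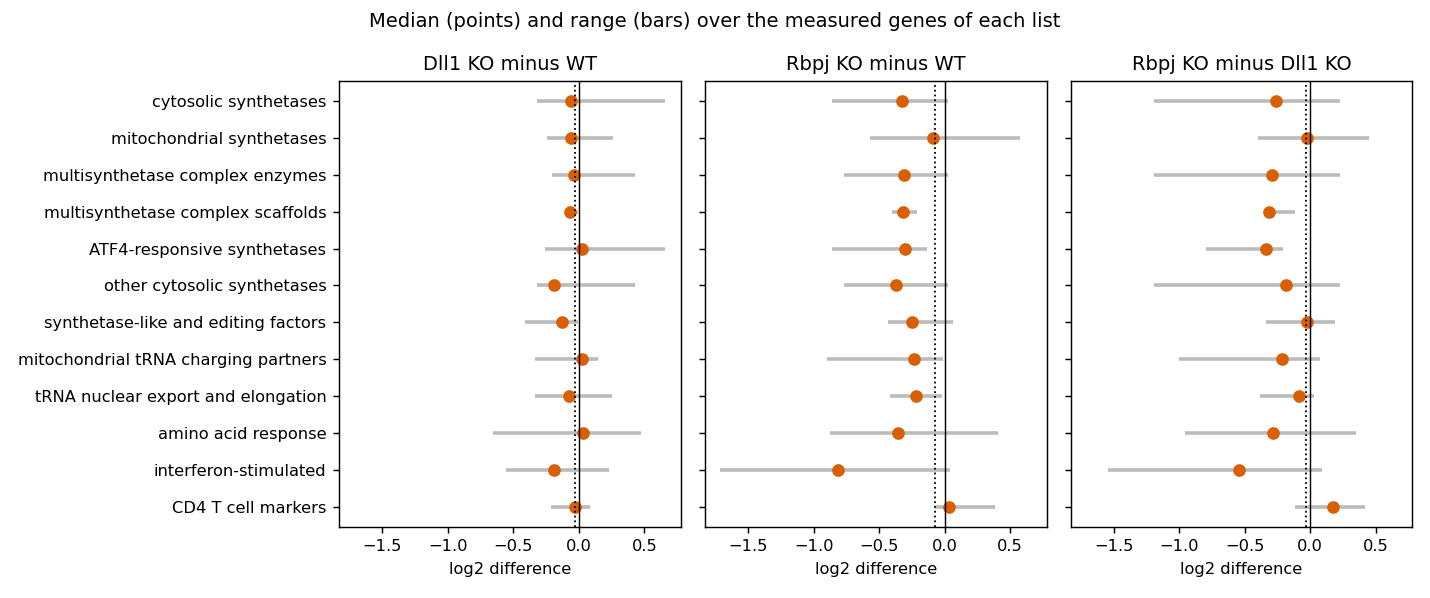
Median (point) and range (line) of the log2 difference for 12 gene lists in the 3 comparisons; dotted lines mark the median over all genes. For Rbpj-/- against wild type the cytosolic synthetases (-0.33), the complex scaffolds (-0.32) and the amino acid response (-0.36) lie close together, the mitochondrial synthetases (-0.09) near all genes (-0.07) and the interferon-stimulated genes lowest (-0.82).

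Markers of other cell types also differed between the arrays. Of 9 B and plasma cell markers 7 were well above background in wild type, 9 in Dll1-/- and 8 in Rbpj-/-, with summed levels of 4.91, 4.85 and 4.51. Of 10 myeloid markers 5, 6 and 5 were, with summed levels of 7.13, 6.73 and 7.77, and Cd14, Adgre1, Cd68 and Fcgr3 were above background on no array. Of 7 NK cell markers 4, 5 and 5 were, with summed levels of 3.51, 3.66 and 2.56, and Ncr1 and Klrk1 were above background on no array. Both CD8 markers were detected on every array, with summed levels of 0.86, 0.91 and 0.06, and Cd8a differed by -0.76 in Rbpj-/-. A summed level is the log2 of the added signals of all probes of a list, so a single bright probe can set it. The myeloid sums lay far above the level of every myeloid gene measured. The highest of these genes was Itgam, the mean of 2 probes, at 2.32, 2.14 and 2.44. The myeloid sums are therefore no measure of myeloid content. In Rbpj-/- against wild type the granule protease gene Gzma differed by -3.07 and Eomes, a transcription factor of NK and cytotoxic T cells, by -1.22. Of the 4 NK markers measured in that comparison 3 were below and 1 was above, at 0.46. Within the B cell and myeloid lists the markers went both ways as well. Jchain of plasma cells differed by 2.12 and the B cell gene Ms4a1 by -0.73, with 5 of 7 markers below and a median of -0.47. The neutrophil genes S100a9 and S100a8 differed by 0.86 and 0.70 and the macrophage gene Mpeg1 by -0.91. The part of other cells in the synthetase differences was not tested, and fewer cells of a type cannot be told apart from less RNA per cell.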

How the data were processed

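RNA was labelled with Cy3 from 20 ng of total RNA per sample and hybridised to 1-colour Agilent arrays, per the labels' protocols. The authors extracted spot intensity values with Agilent Feature Extraction 10.7.1.1, per the file headers. The deposited series table holds log2 values that match the processed signal on the log2 scale after adding an array's own constant (-7.47, -7.27 and -7.14, all values within 0.01, column medians -3.44, -3.40 and -3.28), so its scale and centring were settled and it served as an alternative.

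Outlier spots were left out (143, 163 and 139), spots of a probe averaged, and probes named through their accession and RefSeq GRCm38.p6, which matched 27507 probes (49.4%) to 20886 genes. For each gene, probes that cleared background on 1 or more arrays were averaged, and a gene entered a comparison when a probe cleared it on both. Normexp (offset 50) with quantile normalization used limma 3.58.1 in R 4.3.3, and the rest Python 3.11.15 with pandas 2.3.3. Normexp started from the median signal and median background of each spot, not from the processed signal. Scripts were tested on simulated data. The spread of repeated spots of a probe had a median SD of 0.06, 0.06 and 0.07 (log2), and the number of arrays limits the precision.

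The members, gene lists, motifs and comparisons were chosen with earlier results of these data known, and the split by level, pairs, spot-error counts and array parts after values were seen. Levels are printed for the 6 synthetases with the widest difference in each comparison and all apart by 1.5-fold; from other lists, up to 4 genes apart by 1.5-fold or else the 2 widest. Atf4, Asns, Tufm and Tsfm were named outside this rule, after their values were seen. Rbpj, Dll1, Cd4 and Cd3e served as checks. For 1 measured mitochondrial synthetase the values are not reported here; it is part of the counts and medians over all members, and is left out of the pairs and of the plot of differences.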

Additional observations from a re-analysis of the deposited data

How the results depend on the processing

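Each comparison was repeated under 8 alternatives. No called value changed direction, and of 264 values of single genes 167 moved by less than the spread of repeated spots and 97 by more. Of the 167, 36 each came from the deposited table, no filter on dim probes and probes above background on all 3 arrays. Rows 193 to 384 gave 12. These settings use the same signals for those genes, so they could hardly move them. Normexp moved 27 and kept 9, the median probe moved 24 and kept 12, the spike-in spots moved 36, and the brightest probe moved 10 and kept 26. The deposited table, no filter on dim probes, and probes above background on all 3 arrays moved none of the counts and medians of the synthetases beyond that spread or 1.5 times. With normexp and quantile normalization the Rbpj-/- minus wild type median was -0.11 (cytosolic -0.18, 1 gene 1.5-fold lower), the Rbpj-/- minus Dll1-/- median -0.061 (cytosolic -0.16, 1 gene 1.5-fold lower), and 0 genes were 1.5-fold higher in Dll1-/-. Scaled to the median probe, Rbpj-/- minus wild type gave -0.41 (cytosolic -0.49, mitochondrial -0.25, 7 genes 1.5-fold lower) and Rbpj-/- minus Dll1-/- gave -0.33 (cytosolic -0.38, mitochondrial -0.14). Scaled to the spike-in spots, Dll1-/- minus wild type gave -0.23 (cytosolic -0.22, mitochondrial -0.23, 0 genes 1.5-fold higher), Rbpj-/- minus wild type -0.83 (cytosolic -0.91, mitochondrial -0.67, 31 genes 1.5-fold lower) and Rbpj-/- minus Dll1-/- -0.63 (cytosolic -0.68, mitochondrial -0.44, 20 genes 1.5-fold lower). These scalings move all genes together. Scaled to the spike-in spots, the median of all genes was -0.66 for Rbpj-/- minus wild type, itself beyond 1.5-fold, and 95.1% were lower. Between the knockouts it was -0.45 and 91.2% were lower. Scaled to the median probe, 78.0% of all genes were below wild type in Rbpj-/-. The counts of genes 1.5-fold lower under these scalings thus say little of the synthetases alone. By the brightest probe, 1 gene (Cars2) was 1.5-fold higher in Rbpj-/- than in either other array. Rows 193 to 384 hold 17 of the genes (9 cytosolic, 8 mitochondrial), and fewer genes lower the counts: below wild type were 10 in Dll1-/- (6 cytosolic, median -0.21, and 4 mitochondrial) with 0 genes 1.5-fold higher, and 14 in Rbpj-/- (8 and 6) with 1 gene 1.5-fold lower, while 13 (8 and 5) were below Dll1-/- in Rbpj-/-, with 1 gene 1.5-fold lower. Normexp added an offset of 50 to every signal. In wild type, Dll1-/- and Rbpj-/- the processed signals were 33.4, 46.2 and 24.2 for Yars and 42.8, 31.7 and 23.0 for Mars2. The part of the offset and of the other normexp steps in the normexp changes was not tested. No paired analysis was possible because each group has 1 array. Dim probes such as those of Yars and Mars2 limit what small differences can show.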
